A study of Solanum lycopersicum with 24 samples.

Results

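Expansins are secreted proteins that loosen the plant cell wall at acid pH without cutting its polymers, so that turgor pressure can stretch the wall. Plants carry alpha-expansins and beta-expansins, separate families of related sequence, and in leaves the alpha-expansins are best known from cells that are still enlarging. In tomato, LeEXP1 is the expansin of ripening fruit, LeEXP2 is known from auxin-treated, elongating stems, and exp18 is known from the shoot apex, where leaves begin. The array held 7 expansin probe sets that the authors' deposited tables name, of 10101 probe sets tested. They are LeEXP2, exp11, exp9, EXPA4, exp18, LeEXP1 and LOC100134906, whose title is beta-expansin precursor. All 7 matched a protein-coding gene in the RefSeq gene table, where LeEXP2 and LeEXP1 are called EXP2 and EXP1. RefSeq has 7 further tomato expansin symbols (EXP12, EXP5, EXPA10, EXPA3, EXPA6, EXPA8 and EXPB2), which neither deposited table names.

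The values were log2 signals from Affymetrix arrays of leaf RNA at the flowering stage, 24 arrays in 8 groups of 3. In the drought experiment the groups were a drought tolerant genotype after 7 days without water, the same genotype watered, a drought susceptible genotype after 7 days without water, and that genotype watered. The heat experiment had a heat tolerant genotype after 60 min at 40 °C, its unheated control, a heat susceptible genotype after the same treatment, and its unheated control. The genotypes are not named, and the labels do not say whether the experiments shared them or whether replicate arrays stand for different plants; p-values then cover the spread between arrays, which may be technical. Heated plants stood in a growth chamber and their controls in a greenhouse, so heat and place cannot be told apart. Stressed plants of both experiments are called stressed below and their unstressed controls control.

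The members were chosen on these same arrays. Each deposited table holds probe sets that passed the authors' test of the genotype by treatment term in 1 experiment and had a fold change of at least 2 between stressed and control plants of at least 1 genotype. LeEXP2, exp11, EXPA4, LeEXP1 and LOC100134906 came from the drought table, exp18 from the heat table and exp9 from both. The member nearest the threshold was exp18, whose larger fold in the authors' deposited table was 2.59, and the members just outside it are not named in the files used here. Values in the experiment that chose a member are therefore given as descriptions, with no test. Tests are given for exp18 in drought, where it did not pass both criteria of the drought table. They are also given for LeEXP2, exp11, EXPA4, LeEXP1 and LOC100134906 in heat, where those 5 did not pass both criteria of the heat table. The test was limma's moderated test with Benjamini-Hochberg adjustment over all 10101 probe sets, and a difference was called at an adjusted p under 0.05.

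Dim probe sets were judged against 63 probe sets whose identifiers name reporter genes foreign to tomato. A group was within the reporter range where at least 2 of its 3 arrays lay at or under that array's 95th percentile of those signals, and a difference against such a group is a bound, with the dim arrays raised to the percentile. This percentile averaged 6.19 ± 0.56 in tolerant stressed, 5.80 ± 0.29 in tolerant control, 4.40 ± 0.06 in susceptible stressed and 4.29 ± 0.07 in susceptible control arrays of the drought experiment (log2, SD, n = 3 each). In the heat experiment it averaged 4.81 ± 0.17 in tolerant stressed, 6.22 ± 0.55 in tolerant control, 4.72 ± 0.11 in susceptible stressed and 4.96 ± 0.10 in susceptible control arrays. Replicates agreed less in the tolerant drought arrays, with correlations of 0.9190 to 0.9408 between stressed and 0.9519 to 0.9632 between control arrays, against 0.9974 or more between susceptible arrays. In heat the correlations were 0.9860 to 0.9978 between tolerant stressed and 0.9461 to 0.9890 between tolerant control arrays. They were 0.9967 or more between susceptible heat arrays. Of 14 leaf probe sets fixed as a list (chlorophyll-binding proteins, photosystem subunits, carbonic anhydrases and the like, some of them for the same gene), 10 lay above the percentile on all 24 arrays. Of 6 flower and pollen probe sets 1 (LOC544255) lay above it on all 24 arrays, TDR3 on 23, LOC543885 on 0 and the other 3 on 2 to 5. Of 5 fruit probe sets 4 lay above it on all 24 arrays. The flower and pollen list averaged 7.01 in tolerant stressed, 6.13 in tolerant control, 4.47 in susceptible stressed and 4.77 in susceptible control leaves of the drought experiment, and its part in the expansin values was not tested. The tolerant and susceptible drought arrays also stood apart in a control: the probe sets for bioB, a bacterial transcript added to Affymetrix samples, averaged 11.44 ± 0.15 in tolerant stressed and 10.84 ± 0.22 in tolerant control arrays, against 5.97 ± 0.79 in susceptible stressed and 5.75 ± 0.09 in susceptible control arrays (log2, SD, n = 3 each). In the heat experiment the group means of bioB lay between 6.20 and 6.91. Genotype and this difference between the arrays cannot be told apart in drought, which bears on every drought difference between genotypes and between their responses given below. With 3 arrays a group, precision is limited throughout.

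LeEXP2 was low in drought-stressed leaves of both genotypes, and lowest in the susceptible genotype. It had 8.18, 6.84 and 7.52 in tolerant stressed leaves, against 10.76, 10.83 and 10.44 in tolerant control leaves. Susceptible stressed leaves had 3.65, 3.71 and 3.67, against 9.64, 9.69 and 9.63 in susceptible control leaves. The stressed and control arrays did not overlap in either genotype, and all 3 susceptible stressed arrays were within the reporter range. The level was 8.95-fold lower in tolerant stressed than in tolerant control leaves (difference -3.16 ± 0.27, log2, SE) and at least 38.0-fold lower in susceptible stressed than in susceptible control leaves. Between watered plants the difference was 1.03 ± 0.27, tolerant minus susceptible, across the gap in bioB signal.

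exp11 had the same order in drought between stressed groups. Its levels were 7.59, 7.68 and 8.11 in tolerant stressed leaves, against 10.11, 10.97 and 10.46 in tolerant control leaves. They were 5.42, 5.40 and 5.45 in susceptible stressed leaves, against 10.89, 10.90 and 10.75 in susceptible control leaves. All of these lay above the reporter range, so the differences are given as values and not as bounds: -2.72 ± 0.21 in the tolerant genotype (6.58-fold lower) and -5.42 ± 0.21 in the susceptible genotype (42.9-fold lower). The control arrays of the genotypes overlapped (-0.34 ± 0.21), whereas the tolerant stressed arrays lay above the susceptible stressed arrays by 2.37 ± 0.21. The reporter percentile averaged 6.19 in tolerant stressed and 4.40 in susceptible stressed arrays, and the part of this background in the exp11 values was not tested. With an RNA integrity index as a covariate, described further on, the susceptible difference of exp11 was -4.66 and that between the stressed genotypes 1.66.

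EXPA4 followed the same order with smaller differences. It had 7.28, 7.39 and 7.65 in tolerant stressed leaves, against 8.33, 8.89 and 8.86 in tolerant control leaves. Susceptible stressed leaves had 6.29, 6.34 and 6.14, against 8.71, 8.74 and 8.86 in susceptible control leaves. Stressed leaves were 2.38-fold lower than controls in the tolerant genotype (-1.25 ± 0.16) and 5.70-fold lower in the susceptible genotype (-2.51 ± 0.16), and the control arrays of the genotypes overlapped.

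exp9 ran the other way between the genotypes. In tolerant stressed leaves it had 5.54, 6.03 and 4.40, all within the reporter range, against 9.31, 9.22 and 9.26 in tolerant control leaves. Susceptible stressed leaves had 7.24, 7.16 and 7.31, against 9.46, 9.47 and 9.39 in susceptible control leaves. The stressed level was thus at least 8.41-fold lower than control in the tolerant genotype and 4.61-fold lower in the susceptible genotype (-2.20 ± 0.32). The watered genotypes differed by -0.18 ± 0.32, tolerant minus susceptible, and their arrays did not overlap. This SE is shared by the 4 groups of the fit, and the SD was 0.84 in tolerant stressed, 0.05 in tolerant control and 0.04 in susceptible control leaves. LeEXP2, exp11 and EXPA4 had the larger deficit in the susceptible genotype and exp9 in the tolerant genotype, as differences of responses, tolerant minus susceptible, of at least 2.09 for LeEXP2, 2.71 ± 0.29 for exp11, 1.26 ± 0.23 for EXPA4 and -0.87 or lower for exp9. The tables chose members for a difference of this kind, so no test is given, and the genotypes' arrays also differ in bioB signal and in the reporter percentile.

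**Figure D1:**
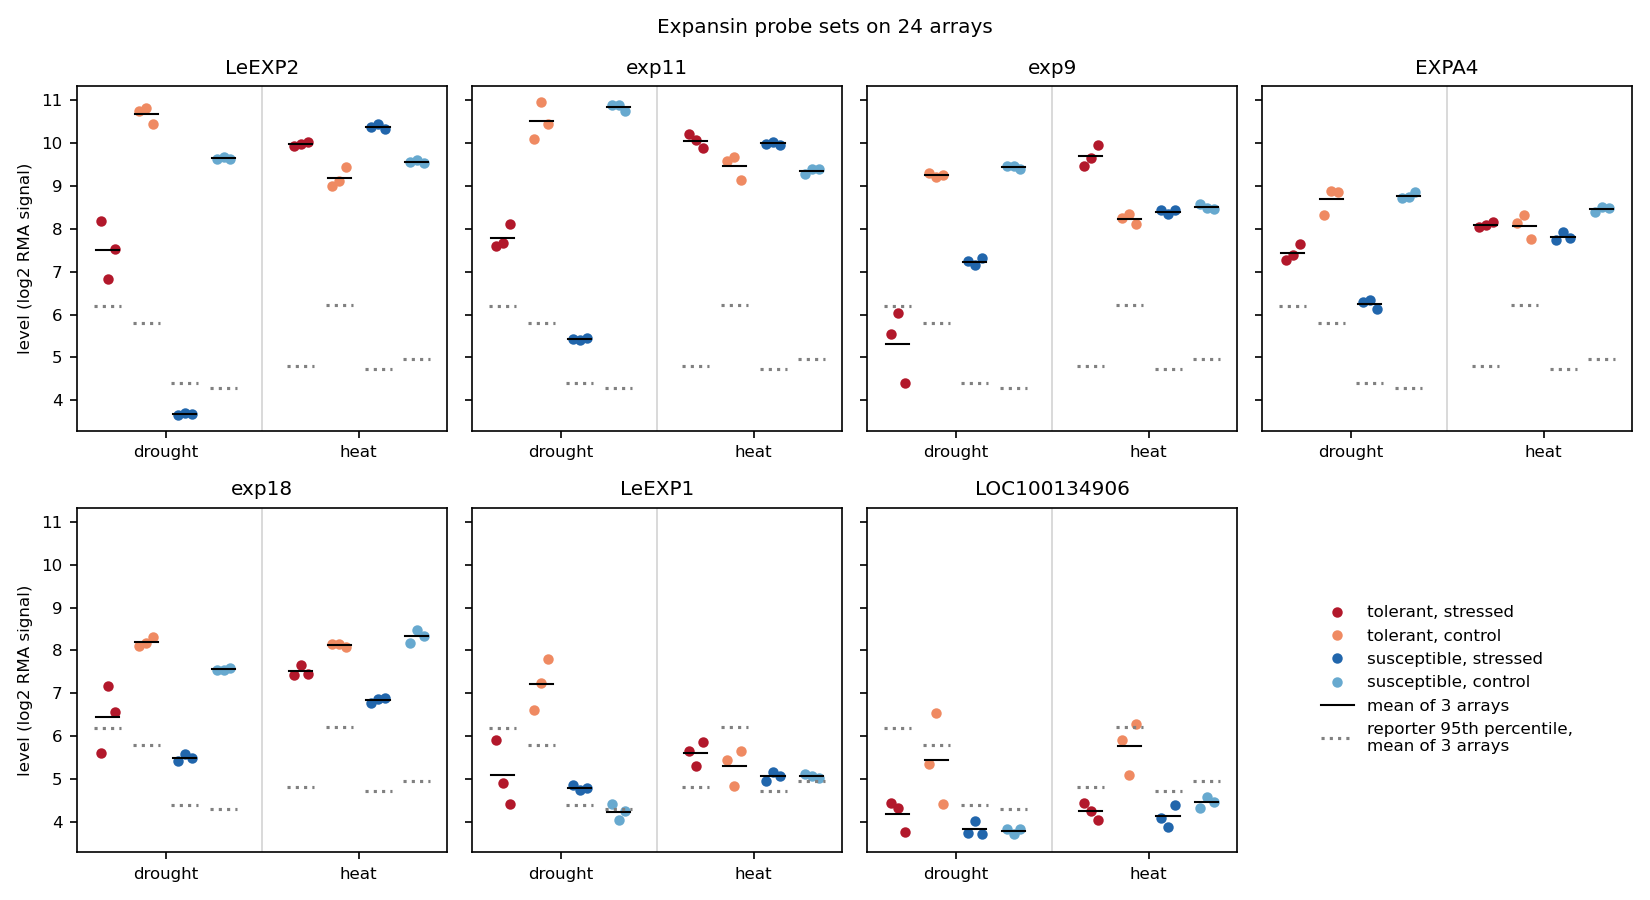
Level of each expansin probe set on each array, as log2 RMA signal on the vertical axis, with the drought groups left and the heat groups right in each panel. Points are arrays, black bars are means of 3 arrays and dotted grey bars are the group mean of the reporter 95th percentile. LeEXP2 sits between 3.65 and 3.71 in susceptible drought-stressed leaves, under the dotted bar, and exp9 sits under it in tolerant drought-stressed leaves.

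exp18 was the only member absent from the drought table, so its drought values could be tested, and it fell in both genotypes. It had 5.60, 7.17 and 6.56 in tolerant stressed leaves, against 8.10, 8.17 and 8.32 in tolerant control leaves. Susceptible stressed leaves had 5.41, 5.58 and 5.48, against 7.55, 7.55 and 7.58 in susceptible control leaves. In the susceptible genotype it fell by 2.07 ± 0.31 (4.20-fold, adjusted p = 0.000347). In the tolerant genotype the difference was -1.75 ± 0.31 (adjusted p = 0.000871), and because 2 of the 3 stressed arrays were within the reporter range the fold is a bound of at least 3.16. The SE is shared by the 4 groups of the fit, whose SD was 0.79 in tolerant stressed and 0.02 in susceptible control leaves. When only the tolerant arrays were fitted, the adjusted p of the tolerant difference was 0.0255. The responses of the genotypes did not differ detectably (0.32 ± 0.43, adjusted p = 0.615), and without replicate 1 of the tolerant stressed group, the dimmest of its 3 arrays, that difference was 0.74 (adjusted p = 0.0281). By these values exp18 met the fold criterion of the drought table, so its absence means that it failed the authors' test of this term. The lack of a detectable difference on the same arrays is therefore no independent result. Calls of lower signal were common in this experiment: 19.7% of all probe sets were lower in susceptible stressed than in susceptible control leaves and 23.2% in tolerant stressed than in tolerant control leaves.

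The RNA of the stressed arrays also differed from that of the controls. An integrity index, the mean 3′ minus 5′ signal of 6 tomato control transcripts, was 1.68 ± 0.15 in tolerant stressed, 2.52 ± 0.52 in tolerant control, 0.54 ± 0.07 in susceptible stressed and 1.77 ± 0.13 in susceptible control drought arrays (log2, SD, n = 3 each). A higher index means a stronger 3′ bias, the mark of less intact RNA, so the stressed drought arrays had the lower 3′ bias in both genotypes. With the index as a covariate the susceptible difference of exp18 was -1.76 and was no longer called (adjusted p = 0.11), while its tolerant difference was -1.54 and only just kept its call (adjusted p = 0.0491). The 9 genes of a dividing-tissue list (histones, cyclins and their kinases), chosen from the same deposited tables, were lower in the same arrays: their mean was 7.04 (6.71 to 7.32 over the arrays) in tolerant stressed and 9.24 (9.17 to 9.31) in tolerant control leaves, and 5.93 (5.92 to 5.94) in susceptible stressed and 8.96 (8.94 to 8.99) in susceptible control leaves. Of those 9 genes, 3 lay above the reporter percentile on all 24 arrays. The leaf list averaged 8.89 in tolerant stressed and 10.22 in tolerant control leaves, and 8.72 in susceptible stressed and 9.88 in susceptible control leaves. The part of RNA integrity and of tissue make-up in the expansin levels was not tested beyond that covariate, and in bulk leaf RNA fewer cells of a type and less RNA per cell cannot be told apart.

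LeEXP1 and LOC100134906 were dim, and LeEXP1 stood out in 1 group of watered plants. LeEXP1 had 5.92, 4.91 and 4.42 in tolerant stressed leaves, with 2 of these within the reporter range, against 6.61, 7.23 and 7.79 in tolerant control leaves. Susceptible stressed leaves had 4.86, 4.74 and 4.78, against 4.41, 4.04 and 4.24 in susceptible control leaves. Tolerant control leaves lay 2.98 ± 0.37 above susceptible control leaves without overlap, and the tolerant stressed leaves were at least 1.91-fold lower than the tolerant control leaves. The susceptible control arrays lay close to their reporter percentile, with 1 of 3 under it. That percentile averaged 5.80 in tolerant control and 4.29 in susceptible control arrays, and the part of this background in the 2.98 was not tested. LOC100134906, the beta-expansin, was within the reporter range in all 8 groups, with drought group means of 4.17 ± 0.36 in tolerant stressed, 5.44 ± 1.07 in tolerant control, 3.82 ± 0.17 in susceptible stressed and 3.78 ± 0.07 in susceptible control leaves. No drought difference is read from it.

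Over the set, the 6 members that the drought table lists include 6 lower in tolerant stressed than in tolerant control leaves and 4 lower in susceptible stressed than in susceptible control leaves by the same limma threshold, and none higher. Those counts follow from how the members were chosen, and 23.2% and 19.7% of all probe sets were called lower in these comparisons. The median difference of all 7 members, 6 of them chosen by the drought table, was -2.13 in the tolerant genotype and -2.20 in the susceptible genotype, beside medians of 0.11 in the tolerant and 0.05 in the susceptible genotype over all probe sets tested. Counted in either direction, 7 of the 7 expansins were called in the tolerant response (LOC100134906 among them, within the reporter range), beside 50.6% of all probe sets, and 5 in the susceptible response, beside 42.8%. Between the genotypes 5 were called in stressed plants, beside 67.8%, and 3 in control plants, beside 58.5%, most of them members whose values here are descriptions. The medians and these counts also depend on how the members were chosen, so nothing about expansins as a family is read from them.

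In heat, LeEXP2 and exp11 rose in both genotypes. LeEXP2 had 9.93, 9.98 and 10.04 in tolerant stressed leaves, against 9.00, 9.11 and 9.45 in tolerant control leaves. It had 10.38, 10.46 and 10.33 in susceptible stressed leaves, against 9.56, 9.60 and 9.53 in susceptible control leaves. Stressed arrays lay above control arrays in both genotypes without overlap, by 0.80 ± 0.12 in the tolerant genotype (1.74-fold, adjusted p = 0.000332) and by 0.83 ± 0.12 in the susceptible genotype (1.77-fold, adjusted p = 0.000402). Both calls were kept under all 19 alternative settings. The responses of the genotypes differed by -0.03 ± 0.17 (adjusted p = 0.908), and with array weights by 0.17, which was called (adjusted p = 0.0355).

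exp11 had 10.22, 10.08 and 9.89 in tolerant stressed leaves, against 9.58, 9.67 and 9.14 in tolerant control leaves. Its levels were 9.98, 10.04 and 9.97 in susceptible stressed leaves, against 9.28, 9.40 and 9.39 in susceptible control leaves. It rose by 0.60 ± 0.14 in the tolerant genotype (1.52-fold, adjusted p = 0.00464) and by 0.64 ± 0.14 in the susceptible genotype (1.56-fold, adjusted p = 0.00704), and the responses differed by -0.04 ± 0.20 (adjusted p = 0.898). The array medians themselves were higher in heat-stressed leaves, by 0.28 in the tolerant and 0.10 in the susceptible genotype. Relative to those medians LeEXP2 still rose in the tolerant genotype (0.52, adjusted p = 0.00553), whereas the tolerant difference of exp11 was 0.32 and missed the threshold (adjusted p = 0.0526). It also missed the threshold when only the tolerant arrays were fitted (adjusted p = 0.0533).

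EXPA4 differed between the genotypes in heat. It had 8.05, 8.09 and 8.15 in tolerant stressed leaves, against 8.14, 8.33 and 7.76 in tolerant control leaves, and these overlapped. Susceptible stressed leaves had 7.75, 7.92 and 7.78, against 8.39, 8.50 and 8.48 in susceptible control leaves, with no overlap. It fell in the susceptible genotype by 0.64 ± 0.13 (1.55-fold, adjusted p = 0.00538), and the tolerant difference was 0.02 ± 0.13 (adjusted p = 0.919), a direction that turned to -0.26 (adjusted p = 0.0609) relative to the array medians. The difference of responses, tolerant minus susceptible, was 0.65 ± 0.19 (adjusted p = 0.0277). It missed the threshold in 6 of the 12 fits that left out 1 array, with values of 0.62 to 0.66 and adjusted p of 0.0503 to 0.0688.

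exp9 and exp18, which the heat table lists, are described without a test. exp9 had 9.48, 9.66 and 9.95 in tolerant stressed leaves, against 8.25, 8.35 and 8.12 in tolerant control leaves. It had 8.43, 8.35 and 8.43 in susceptible stressed leaves, against 8.57, 8.49 and 8.46 in susceptible control leaves. The tolerant stressed level was 2.75-fold higher than control (1.46 ± 0.12), and the susceptible difference was -0.10 ± 0.12. In the tolerant genotype of the drought experiment exp9 was low in stressed leaves and in that of the heat experiment it was high.

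exp18 had 7.43, 7.66 and 7.45 in tolerant stressed leaves, against 8.14, 8.16 and 8.09 in tolerant control leaves. It had 6.77, 6.86 and 6.89 in susceptible stressed leaves, against 8.17, 8.48 and 8.33 in susceptible control leaves. Stressed leaves were lower in both genotypes without overlap, 1.54-fold in the tolerant (-0.62 ± 0.11) and 2.81-fold in the susceptible genotype (-1.49 ± 0.11). The dividing-tissue list averaged 8.63 in tolerant stressed, 9.70 in tolerant control, 8.36 in susceptible stressed and 9.01 in susceptible control leaves of this experiment.

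LeEXP1 did not pass the test in heat. Its group means were 5.61 ± 0.29 in tolerant stressed, 5.31 ± 0.43 in tolerant control, 5.06 ± 0.09 in susceptible stressed and 5.07 ± 0.04 in susceptible control leaves (SD, n = 3 each), and all 3 tolerant control arrays were within the reporter range. The differences were 0.30 ± 0.20 in the tolerant genotype (adjusted p = 0.222) and -0.01 ± 0.20 in the susceptible genotype (adjusted p = 0.984). LOC100134906 had 4.43, 4.25 and 4.04 in tolerant stressed leaves, against 5.90, 5.10 and 6.28 in tolerant control leaves, a difference of -1.52 ± 0.26 that passed the threshold (adjusted p = 0.000702). Both of those groups were within the reporter range, and the median reporter signal moved the same way, at 3.51 ± 0.13 in tolerant stressed and 4.43 ± 0.53 in tolerant control arrays. The part of this background in the LOC100134906 value was not tested. Its susceptible difference was -0.32 ± 0.26 (adjusted p = 0.464).

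Of the 5 members tested in heat, 2 were higher and 1 lower in stressed than in control leaves of the tolerant genotype, beside 29.6% of all probe sets higher and 25.5% lower (55.1% in either direction). In the susceptible genotype 2 were higher and 1 lower, beside 12.1% of all probe sets higher and 9.15% lower (21.3% in either direction). For the difference of responses 1 was higher and 1 lower, beside 15.5% higher and 12.1% lower. The lower call in the tolerant genotype and for this difference was LOC100134906, whose groups were within the reporter range. In either direction 27.6% of all probe sets were called for that difference, and with so few members nothing more is read from these counts. The shares depend on the scaling: relative to the array medians 19.1% of all probe sets were higher and 42.9% lower in the tolerant genotype, 9.76% higher and 13.0% lower in the susceptible genotype, and 11.9% higher and 17.6% lower for the difference of responses.

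**Figure D2:**
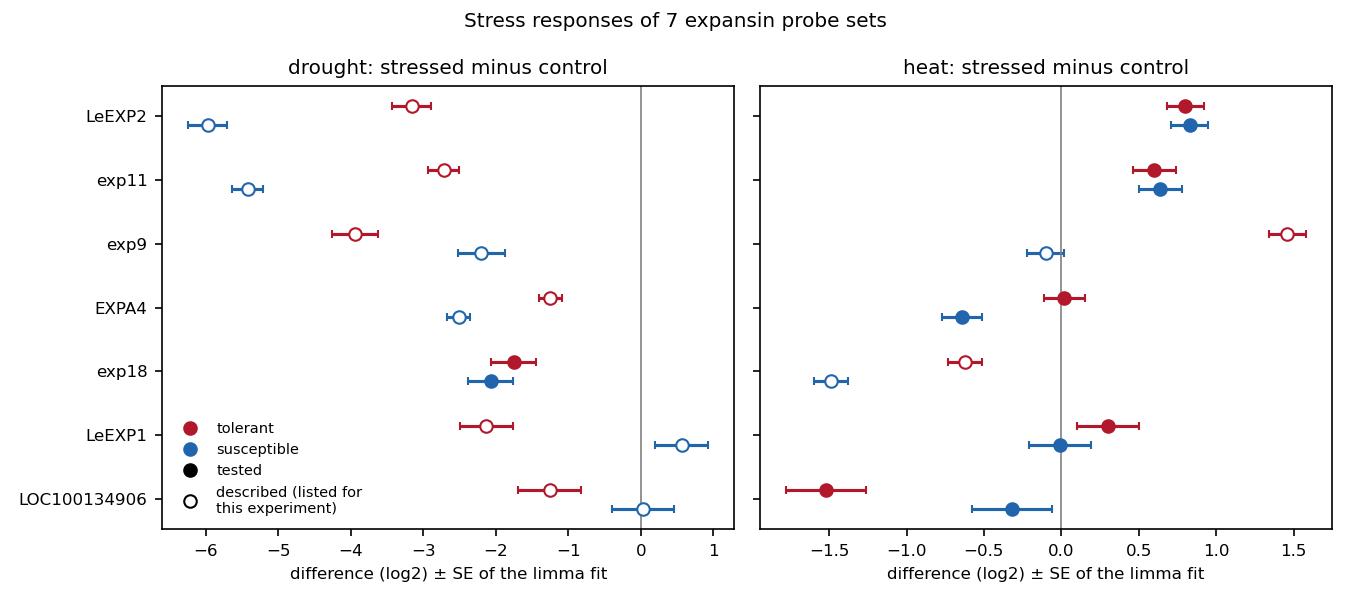
Stressed minus control difference of each expansin probe set on the log2 scale, drought left and heat right, with the standard error of the limma fit. Filled points were tested and open points are described, because that experiment's table lists the member. In heat LeEXP2 sits at 0.80 in the tolerant and 0.83 in the susceptible genotype. The drought values of LeEXP2 in the susceptible genotype and of exp9, LeEXP1 and exp18 in the tolerant genotype involve a group within the reporter range, as do the tolerant heat value of LeEXP1 and all values of LOC100134906.

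Between the genotypes in the heat experiment, LeEXP2 was lower in tolerant than in susceptible leaves, by -0.40 ± 0.12 in stressed plants (adjusted p = 0.0245) and by -0.38 ± 0.12 in control plants (adjusted p = 0.02). EXPA4 was lower in tolerant control than in susceptible control leaves (-0.38 ± 0.13, adjusted p = 0.0336), and its difference in stressed plants was 0.28 ± 0.13 (adjusted p = 0.146), which was called in 3 of 19 alternatives (adjusted p = 0.0461 with the compared groups only, 0.000909 with array weights and 0.0214 without replicate 3 of the tolerant control group). exp11 differed by 0.07 ± 0.14 in stressed and 0.11 ± 0.14 in control plants (adjusted p = 0.767 and 0.532), and with array weights by 0.18 in stressed and 0.21 in control plants, both called (adjusted p = 0.0211 and 0.000376). Relative to the array medians, which were lower by 0.20 in tolerant control than in susceptible control arrays, the control difference of LeEXP2 was -0.17 (adjusted p = 0.247) and that of EXPA4 -0.17 (adjusted p = 0.19), and neither was called. The stressed difference of LeEXP2 missed the threshold in 5 of the 12 fits that left out 1 array. With the RNA integrity index as a covariate none of the 3 was called (LeEXP2 in stressed plants at -0.42, adjusted p = 0.194, and in control plants at -0.40, adjusted p = 0.215; EXPA4 in control plants at -0.28, adjusted p = 0.414). The index was 3.90 ± 0.54 in tolerant stressed, 3.07 ± 0.14 in susceptible stressed, 4.37 ± 0.12 in tolerant control and 3.51 ± 0.08 in susceptible control arrays of this experiment. Genotype calls were common in this experiment: 31.3% of all probe sets were called in stressed plants (13.3% lower in the tolerant genotype), and 58.1% in control plants (31.6% higher and 26.5% lower in the tolerant genotype, or 45.9% higher and 20.6% lower relative to the array medians).

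Other genes of the wall were taken from the deposited tables by title: xyloglucan endotransglucosylase-hydrolases, which cut and rejoin the xyloglucan that ties cellulose together, endoglucanases, galactosidases and arabinosidases, pectin enzymes, extensins and arabinogalactan proteins. There were 32 such probe sets. Those that only 1 table lists are counted in the other experiment, and those that both tables list are counted in neither. In drought 11 could be tested: 3 were higher and 8 lower in stressed than in control leaves of the tolerant genotype, and 2 were higher, 6 lower and 3 not called in the susceptible genotype. One of the 3 higher calls, the extensin LOC544058, lies between groups within the reporter range. All probe sets gave 27.4% higher and 23.2% lower in the tolerant genotype and 23.1% and 19.7% in the susceptible genotype. The median difference of the 11 was -1.04 in the tolerant and -0.61 in the susceptible genotype.

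Members of this list that fell in drought included XTH9, at 6.58 in tolerant stressed and 9.86 in tolerant control leaves (-3.28 ± 0.23, adjusted p = 2.15e-06), and XTH16, at 7.79 in susceptible stressed and 11.83 in susceptible control leaves (-4.04 ± 0.35, adjusted p = 7.69e-06). Each also fell in the other genotype: XTH9 in the susceptible (-3.57 ± 0.23, adjusted p = 1.08e-06) and XTH16 in the tolerant genotype (-3.09 ± 0.35, adjusted p = 4.7e-05). The endoglucanase cel5 fell by 2.70 or more in the tolerant genotype (adjusted p = 4.25e-06) and fell by 4.05 or more in the susceptible genotype (adjusted p = 1.38e-06), its stressed groups being within the reporter range. The probe set tEG3, titled as a galactosidase, went the other way: it averaged 9.76 in tolerant stressed and 6.48 in tolerant control leaves (3.28 ± 0.38, adjusted p = 5.38e-05), and 10.56 in susceptible stressed and 6.89 in susceptible control leaves (3.68 ± 0.38, adjusted p = 2.66e-05). The beta-galactosidase TBG2 also rose, by 1.33 in the tolerant (adjusted p = 0.00511) and 1.53 in the susceptible genotype (adjusted p = 0.00271).

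In heat 15 of the wall probe sets could be tested. In the tolerant genotype 3 were higher, 3 lower and 9 not called, beside 29.6% of all probe sets higher and 25.5% lower. In the susceptible genotype 0 were higher, 5 lower and 10 not called, beside 12.1% of all probe sets higher and 9.15% lower. Relative to the array medians 2 were higher and 7 lower in the tolerant genotype, and 0 higher and 7 lower in the susceptible genotype. Their median difference was 0.06 in the tolerant (-0.22 relative to the array medians) and -0.41 in the susceptible genotype, where the differences of LeEXP2 and exp11 lay above those of all 15. This was not so in the tolerant genotype, where LOC778328 and LeARF1 lay above both expansins. LOC778328, titled methionine rich arabinogalactan, rose there by 1.64 ± 0.48 (adjusted p = 0.0144). LeARF1, an arabinofuranosidase, rose in the tolerant genotype (9.38 in stressed and 8.50 in control leaves, 0.88 ± 0.12, adjusted p = 0.000152). In the susceptible genotype LeARF1 was lower in stressed leaves (-0.57 ± 0.12, adjusted p = 0.00421). The endoglucanase Cel2 fell in the susceptible genotype (9.36 in stressed and 10.00 in control leaves, -0.64 ± 0.10, adjusted p = 0.00063) and was not called in the tolerant genotype (0.06 ± 0.10, adjusted p = 0.623). The class II extensin LOC544060, a structural wall protein, fell in both genotypes. It had 8.11 in tolerant stressed and 9.35 in tolerant control leaves (-1.24 ± 0.13, adjusted p = 2.97e-05). Susceptible stressed leaves had 7.40 and susceptible control leaves 8.34 (-0.94 ± 0.13, adjusted p = 0.000305).

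**Figure D3:**
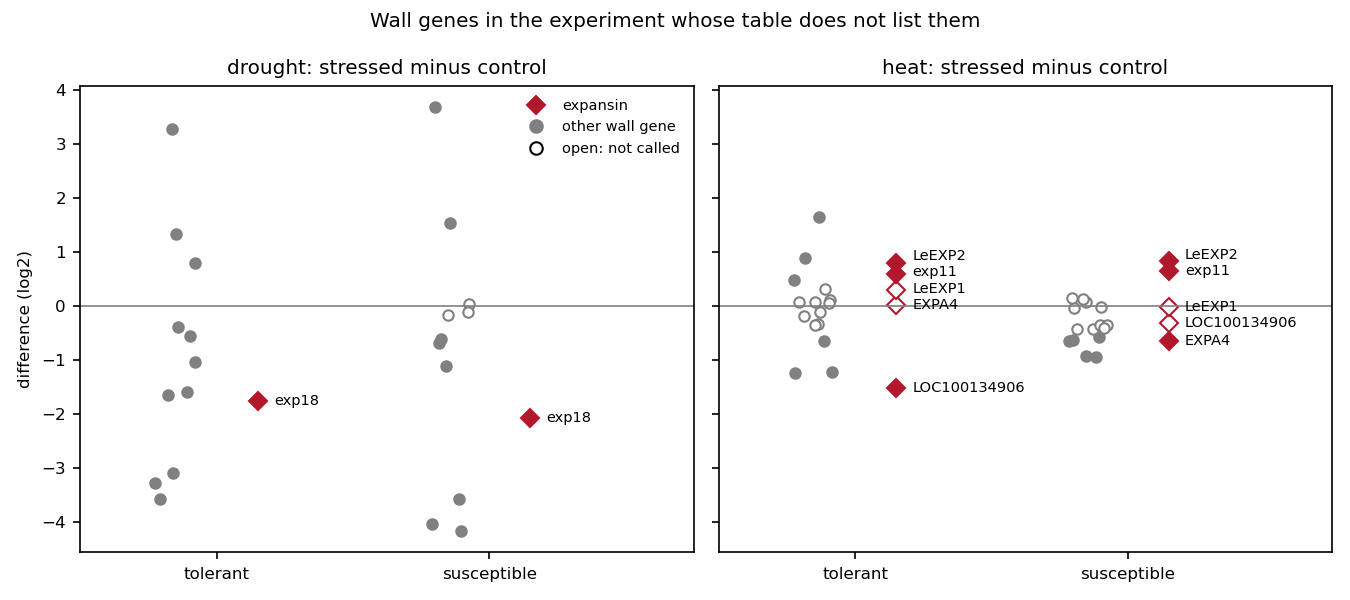
Stressed minus control difference on the log2 scale for expansins (red diamonds) and other wall genes (grey circles), each in the experiment whose table does not list it. Filled symbols passed an adjusted p under 0.05 and open symbols did not. In heat LeEXP2 and exp11 are the highest symbols in the susceptible genotype, and EXPA4, at -0.64, lies among the lower ones. In the tolerant genotype the wall genes LOC778328 (1.64) and LeARF1 (0.88) lie above LeEXP2 and exp11. The value of LOC100134906 at -1.52 is a difference between groups within the reporter range.

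The named probe sets most like each expansin were found among 452 with a single gene symbol, by the root mean square difference of the 8 group means after each experiment was centred on its own 4 groups. These candidates come from the same tables, so all were chosen for a stress response that differs between genotypes. For LeEXP2, whose own profile has a root mean square of 1.92, the nearest was XTH7 at 0.43, then the endoglucanase LOC543671 at 0.60 and gts1 at 0.66. XTH7 averaged 8.41 ± 0.23 in tolerant stressed, 10.77 ± 0.04 in tolerant control, 3.87 ± 0.08 in susceptible stressed and 10.11 ± 0.09 in susceptible control leaves in drought. In susceptible drought-stressed leaves LeEXP2, XTH7, LOC543671 (3.67) and gts1 (3.83) all averaged under the mean reporter percentile of 4.40. These distances therefore rest partly on background. In heat XTH7 was not called (0.32 ± 0.18 in the tolerant genotype, adjusted p = 0.162, and -0.41 ± 0.18 in the susceptible genotype, adjusted p = 0.153), where LeEXP2 rose.

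exp11 was nearest to LOC543671 (0.37), gts1 (0.39) and Cel2 (0.42). The nearest to exp9 was sbt4a, a subtilisin-like protease, at 0.28, followed by LEXYL2 and sbt3 at 0.53 each. In tolerant drought-stressed leaves exp9, sbt4a, LEXYL2 (5.43) and sbt3 (5.24) all averaged under the mean reporter percentile of 6.19. The distances from exp9 therefore also rest partly on background. In drought sbt4a averaged 6.02 ± 0.77 in tolerant stressed, 10.33 ± 0.09 in tolerant control, 7.46 ± 0.08 in susceptible stressed and 10.55 ± 0.04 in susceptible control leaves, the order of groups seen for exp9 in stressed leaves. In heat it averaged 10.66 ± 0.01 in tolerant stressed leaves, against 9.43 ± 0.27 in tolerant control leaves, and 9.21 ± 0.14 in susceptible stressed leaves, against 9.21 ± 0.03 in susceptible control leaves.

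EXPA4 and exp18 shared their nearest probe sets: LOC100037513, titled SlTCP3 after a family of transcription factors that act in leaf shape, at 0.23 from EXPA4 and 0.30 from exp18, and the coiled-coil protein gene FPP at 0.26 and 0.38. The third place was held by LOC544225 for EXPA4 (0.30) and by cdkB1, a cyclin-dependent kinase of dividing cells, for exp18 (0.41). The nearest to LeEXP1 were cevi57 (0.25), MDC (0.28) and PR-1a1 (0.35), and as LeEXP1 had 2 groups within the reporter range these distances rest partly on background. No neighbours are read for LOC100134906, which was within that range in all 8 groups. Among the expansins themselves EXPA4 and exp18 were 0.34 apart and LeEXP2 and exp11 0.56 apart.

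**Figure D4:**
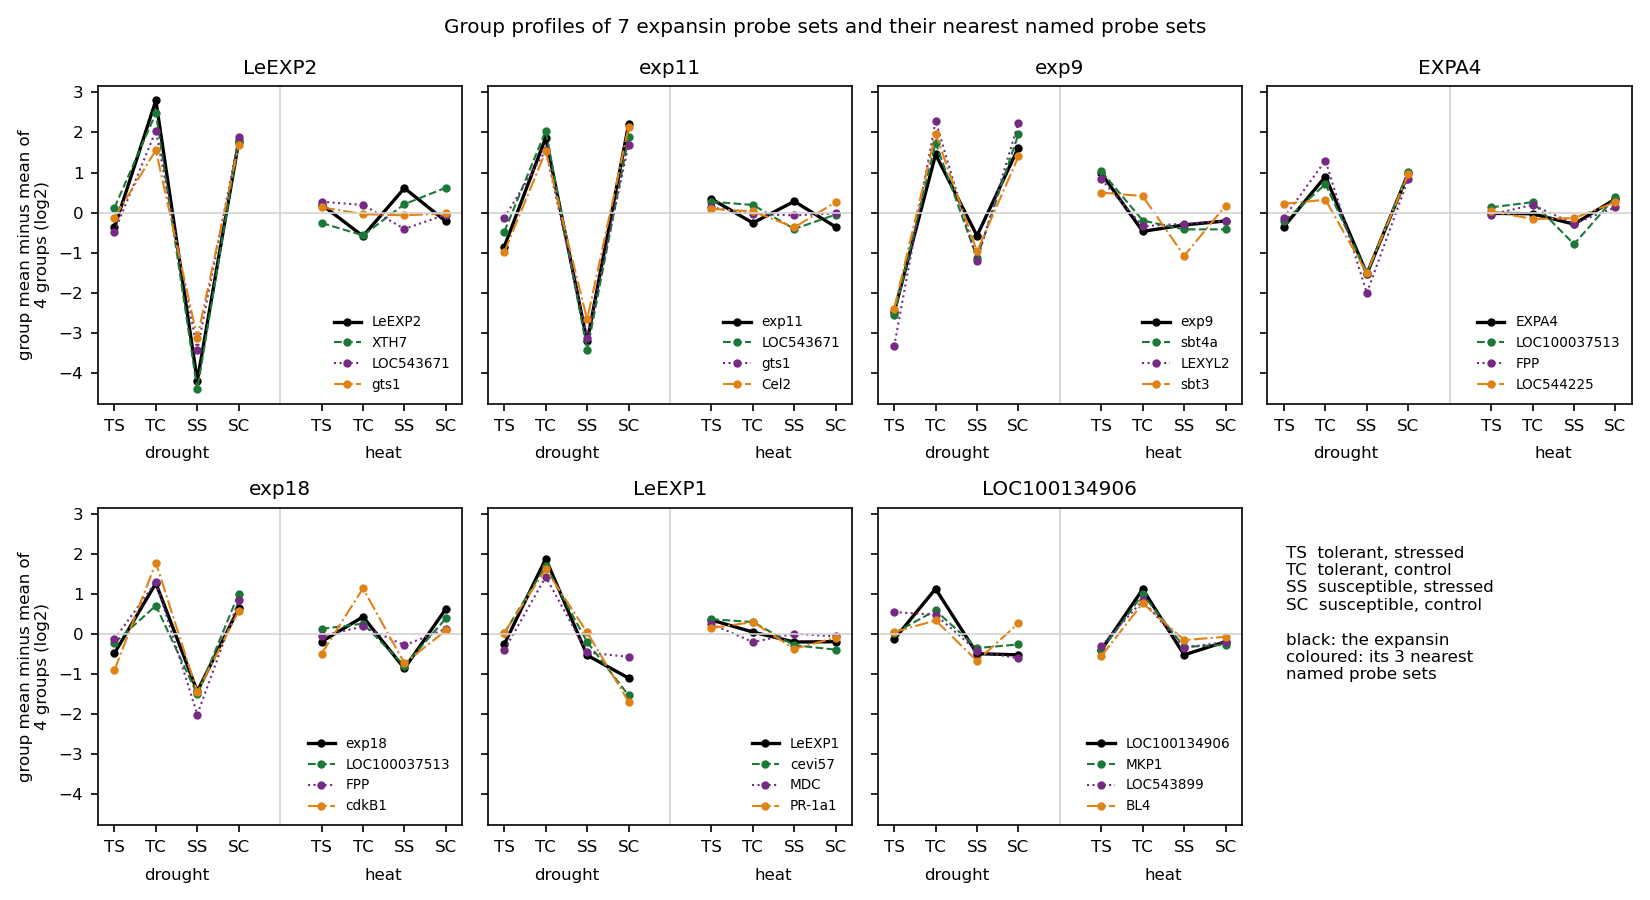
Group means of each expansin (black) and of its 3 nearest named probe sets (coloured), each experiment centred on the mean of its 4 groups, in log2 on the vertical axis. The panel of LOC100134906 shows signal within the reporter range. TS is tolerant stressed, TC tolerant control, SS susceptible stressed and SC susceptible control. LeEXP2 and XTH7 share a low point in susceptible drought-stressed leaves, where both means (3.68 and 3.87) are under the mean reporter percentile of 4.40. XTH7 lies below LeEXP2 in heat-stressed leaves.

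The authors' deposited tables give their own fold changes for the members. For LeEXP2 in drought these were 6.70-fold down in the tolerant and 34.7-fold down in the susceptible genotype, where the deposited array values give 8.95 and 62.8 before any bound is set. For exp11 the authors' deposited table has 5.36-fold down in the tolerant and 28.1-fold down in the susceptible genotype, against 6.58 and 42.9 from the array values. In the authors' deposited tables the direction was the same as in the array values for all 12 drought and all 4 heat folds of the members, and the size was smaller in 10 of 12 and 2 of 4. The cause of the difference in size was not tested.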

How the data were processed

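Log2 signals of the 24 arrays were deposited by the authors, who per the submitters' processing notes used Affymetrix Expression Console with RMA 1.0. Joint normalization of all arrays was not given in the sources used here. Linear fold changes (ratios) come from the authors' tables, filtered as described above, per the file headers.

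Here limma 3.58.1 in R 4.3.3 fitted 4 group means per experiment to 12 arrays, for 10101 probe sets without 108 AFFX controls, after a check on simulated data. Members and lists were chosen with earlier results of these data known. All members are named, with the 3 nearest named probe sets of all but LOC100134906. Other wall genes are named by size, up to 2 called in each direction per comparison, and only some of these are printed. Replicate numbers did not pair the arrays: in 0 of 8 comparisons of 2 groups did every same-numbered pair deviate together with a correlation over 0.1. Alternatives were repeated quantile normalization, median centring, leaving out the dimmest 25% of probe sets, fitting the compared groups only, array weights, a replicate block, the RNA integrity index as covariate, and leaving out each array. No sequence is printed, as no sequence table was used here.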

Additional observations from a re-analysis of the deposited data

Results flagged for a closer look

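The heat response of EXPA4 differed between the genotypes by a test of the difference itself: tolerant minus susceptible was 0.65 (limma, adjusted p = 0.0277), with 0.02 in the tolerant and -0.64 in the susceptible genotype. In the tolerant genotype 8.05 to 8.15 in stressed leaves lay inside the 7.76 to 8.33 of control leaves, while all 3 susceptible stressed arrays were below all 3 susceptible control arrays.

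The value of LOC100134906 also passed the threshold of this test, at -1.20 (limma, adjusted p = 0.0322), with -1.52 in the tolerant and -0.32 in the susceptible genotype. All of its groups were within the reporter range, so no difference in the response of the gene is read from it. By these values it met the authors' fold criterion in heat (2.87-fold in the tolerant genotype), yet their heat selection left it out. It therefore failed the authors' test of this term on the same arrays. Here it missed the threshold in 8 of the 12 fits that left out 1 array (-1.26 to -1.06, adjusted p of 0.0533 to 0.0827).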

How the results depend on the processing

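Of 30 tested values, 9 kept direction and side of the threshold under every alternative, among them the heat differences of LeEXP2 in both genotypes and of exp11 and EXPA4 in the susceptible genotype. Some turned in direction. With array weights the heat difference of responses of LeEXP2 was 0.17 (adjusted p = 0.0355, against -0.03 otherwise) and the tolerant heat difference of EXPA4 -0.08 (0.02 otherwise). This EXPA4 value was -0.23 after repeated quantile normalization, -0.26 after median centring and -0.03 with the RNA integrity covariate. That covariate also turned the heat genotype difference of exp11 to -0.04 in control and -0.07 in stressed plants, and of LOC100134906 in stressed plants to -0.18. With single arrays left out, 7 heat or drought values lay on both sides of 0, none of them called on the turned side: the difference of responses from -0.05 to 0.74 for exp18 in drought, and in heat from -0.12 to 0.11 for LeEXP2 and -0.20 to 0.06 for exp11; the heat difference from -0.06 to 0.04 for LeEXP1 in the susceptible and -0.14 to 0.14 for EXPA4 in the tolerant genotype; and the genotype difference in heat-stressed plants from -0.01 to 0.15 for exp11 and -0.01 to 0.25 for LOC100134906. The number of all 7 expansins called, described members included, changed as follows. With the RNA integrity covariate it was 3 of the susceptible drought response (5 otherwise), 3 of drought-stressed genotypes (5), 0 of heat control genotypes (3) and 1 of heat-stressed genotypes (3). Without the dimmest 25% it was 1 of drought control genotypes (3), as 5 members stayed in the fit. For heat control genotypes it was 1 after median centring, 1 with the compared groups only and 7 with array weights. For heat-stressed genotypes it was 5 with the compared groups only and 6 with array weights. Leaving out 1 array gave 2 to 4 for the heat difference of responses, 1 to 4 for heat control and 2 to 5 for heat-stressed genotypes. The cause was not tested. A fit with the replicate number as a block changed no call of the 30 tested values: heat control genotypes kept 3 calls. Counts of all probe sets called that moved by over 1.5 times were, with the compared groups only, 3109 in the tolerant drought response (5110 otherwise), 7502 in the susceptible drought response (4324), 3174 in the tolerant heat response (5564) and 4431 in the susceptible heat response (2150). With array weights they were 7481 in the susceptible drought response, 5480 in the susceptible heat response, 7197 in the heat difference of responses (2786) and 6932 in heat-stressed genotypes (3157). With the RNA integrity covariate they were 2022 in the susceptible drought response, 3960 in drought-stressed genotypes (6852), 1284 in heat-stressed and 816 in heat control genotypes (5872). Leaving out 1 array gave 1794 to 4512 for the heat difference of responses.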
